A study of Mus musculus with 24 samples.

Results

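The effect of the Flt3 internal tandem duplication (ITD) was examined in Esam-lo CD11b+ dendritic cells of mouse spleen. The comparison used the 4 libraries of this subset, of 24 in the study: 2 from Flt3 ITD/+ mice (ITD) and 2 from Flt3 +/+ mice (WT). All mice in the comparison were F1 animals of C57BL/6 and FVB/N parents, so the duplication was carried on 1 allele in the ITD mice and the mixed background was common to both genotypes. Each genotype had 1 library in experiment batch C and 1 in batch D, and the ITD and WT libraries of a batch formed a pair. The study also sorted Esam-hi CD11b+ cells, canonical and non-canonical CD8+ cells and plasmacytoid dendritic cells (PDC) from both genotypes, and RNA of the sorted cells was sequenced. The labels used here give neither the age of the mice nor how many mice were pooled for a library.

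Flt3 is a receptor tyrosine kinase whose ligand drives dendritic cell development from bone marrow progenitors and maintains dendritic cells in the spleen. The internal tandem duplication lengthens the juxtamembrane part of the receptor, releases its kinase from autoinhibition and is frequent in human acute myeloid leukaemia. The mutant receptor signals through STAT5 as well as the MAPK and PI3K pathways. In the spleen, CD11b+ conventional dendritic cells present antigen to CD4+ T cells and fall into an Esam-hi fraction that depends on Notch2 and an Esam-lo fraction with more monocyte-related genes.

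The 4 libraries held 11197145 (ITD, batch C), 16486015 (ITD, batch D), 16382558 (WT, batch C) and 17242641 (WT, batch D) reads counted in genes, within the range of 11197145 to 22248404 over all 24 libraries. Levels are given below as CPM, the reads of a gene scaled to a common library total, in batch C and then batch D, and fold changes as log2 of ITD over WT with the standard error (SE) of the paired fit. CPM is not corrected for transcript length, so levels are compared between libraries and not between genes. The libraries of 1 genotype differed by more than counting noise (chi-square over its degrees of freedom 10.6 between the ITD and 38.2 between the WT libraries). Over 11098 genes with at least 5 CPM on average, the SD of the log2 ITD-minus-WT difference was 0.35 in batch C and 0.46 in batch D. The SD of the log2 difference between batches D and C was 0.35 within ITD and 0.52 within WT. The differences between genotypes were therefore no wider than those between the 2 WT libraries. Against those between the 2 ITD libraries, they were wider in batch D and about as wide in batch C. Across genes the pair C and pair D differences had a Pearson correlation of 0.23 (Spearman 0.18).

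The labelled identity of the cells was checked against 4 markers fixed for this subset. Clec10a, a galactose-type C-type lectin, averaged 128 CPM in ITD and 84.5 CPM in WT Esam-lo cells, against 11.2 and 9.21 CPM in ITD and WT Esam-hi cells. Ccr2, a chemokine receptor of monocyte-related cells, averaged 435 CPM in ITD and 363 CPM in WT Esam-lo cells, against 72.3 and 64.97 CPM in ITD and WT Esam-hi cells. Clec12a, an inhibitory C-type lectin, averaged 192 CPM in ITD and 199 CPM in WT Esam-lo cells, against 49.9 and 42.4 CPM in Esam-hi cells. Itgam, which encodes CD11b itself, was close in both fractions. Esam, the sorting marker, averaged 10.7 ± 2.27 CPM in ITD and 8.89 ± 6.87 CPM in WT Esam-lo cells (SD, n = 2 each), against 64.3 ± 6.32 and 62.8 ± 9.04 CPM in ITD and WT Esam-hi cells. The means of Clec10a, Ccr2, Clec12a and Esam thus followed the label in both genotypes, while Itgam did not separate the fractions. The WT Esam-lo libraries differed between batches C and D. Ccr2 had 473 and 253 CPM in them, Clec12a 252 and 147 CPM, Clec10a 119 and 50.1 CPM and Esam 4.03 and 13.7 CPM. The ITD libraries differed in the same directions by less.

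Within Esam-lo cells none of the 4 markers passed the paired edgeR test between genotypes, and DESeq2 called 1, Clec10a, higher. Clec10a had 143 and 114 CPM in ITD libraries and 119 and 50.1 CPM in WT libraries, and these ranges overlapped. With the scaling factors of the test applied, both ITD libraries lay above both WT libraries. Its log2 fold change was 0.75 ± 0.19 (SE; edgeR adjusted p = 0.164, DESeq2 adjusted p = 0.0171). The edgeR adjusted p was 0.552 for Ccr2, 0.855 for Itgam and 0.981 for Clec12a. Flt3 itself had 412 and 433 CPM in ITD libraries and 536 and 532 CPM in WT libraries. The groups did not overlap, but the log2 fold change of -0.31 ± 0.09 did not pass (edgeR adjusted p = 0.203). Flt3 was lower in the ITD library in 12 of the 12 ITD-WT pairs of the study, these 2 included. Counts per gene do not show the duplication, so Flt3 does not check the genotype labels.

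Few genes passed the test in Esam-lo cells. Of 18093 genes tested with the paired edgeR quasi-likelihood fit, 7 rose (0.0387%) and 2 fell (0.0111%) in ITD cells at a Benjamini-Hochberg adjusted p under 0.05. The genes that rose were Fscn1, Plxdc2, Socs2, Slc4a8, Dapk1, Spib and Tmem123, and those that fell were Apoe and Ikzf3. At an unadjusted p under 0.05, 1286 genes were higher (7.11%) and 1080 lower (5.97%), which is the background for the gene lists below. With DESeq2 in the same paired design, 194 genes rose (1.07%) and 42 fell (0.232%), and these included the 9 genes. With the batch pairing ignored, edgeR called Plxdc2 alone (adjusted p = 0.0400; 0.00553% of genes). In the paired edgeR fit without pair C, 94 genes rose and 33 fell, with 6 of the 9 genes among them; Socs2, Slc4a8 and Spib did not pass (adjusted p = 0.0522, 0.0719 and 0.0579). Without pair D, 3 rose and 0 fell, with 1 of the 9 among them, Fscn1 (edgeR adjusted p = 0.034). Leaving out any single library of the 4, with the pairing ignored, edgeR called 0 genes. Fitted with the 8 CD11b+ libraries alone, 4 of the 9 passed (Plxdc2, Socs2, Fscn1 and Apoe), and with the 4 Esam-lo libraries alone 5 passed, these and Ikzf3. Slc4a8, Dapk1, Spib and Tmem123 passed in neither, with edgeR adjusted p of 0.0802, 0.0679, 0.149 and 0.128 in the CD11b+ fit. The 2 genotypes were represented by 2 libraries each. An exact permutation test of a single gene that ignores the pairing cannot give a two-sided p below 0.333 here. Keeping the pairing leaves fewer arrangements, so its smallest p is no lower. Each call therefore rests on the spread shared across the 12 pairs.

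**Figure D1:**
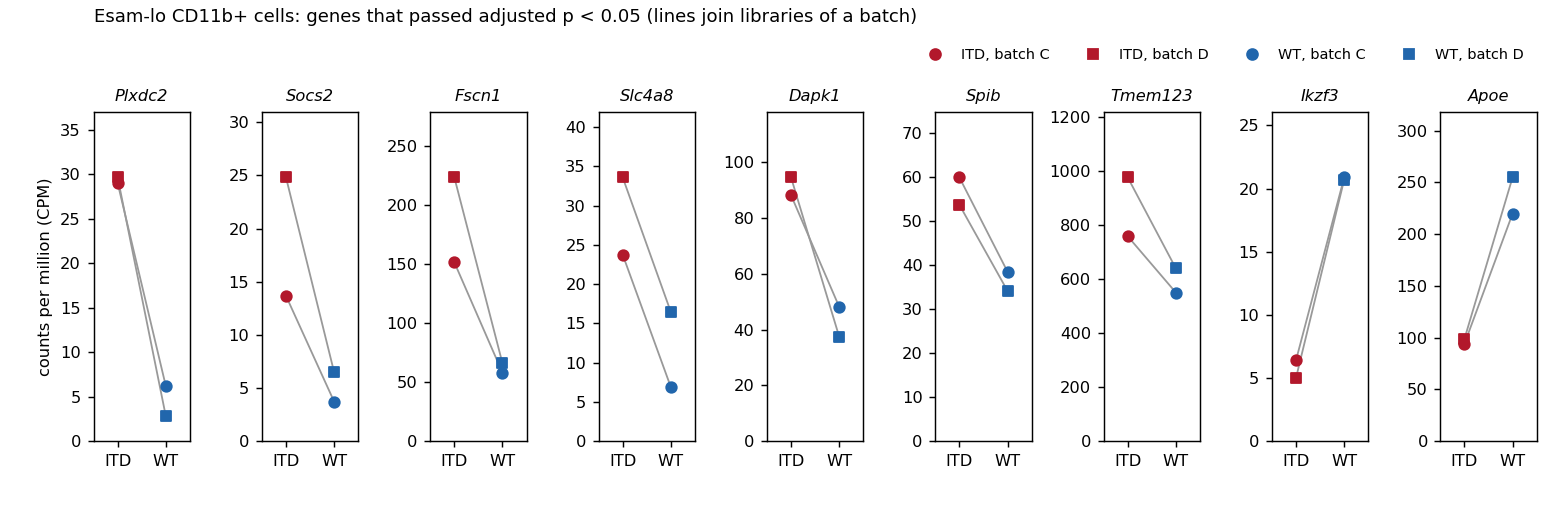
Levels of the 7 genes that rose and the 2 that fell in ITD Esam-lo cells, as CPM on linear axes that start at 0, in each of the 4 libraries (circles batch C, squares batch D), with lines joining the ITD and WT library of a batch. In each panel both ITD libraries, on the left, lie on 1 side of both WT libraries.

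Fscn1 encodes fascin, the actin-bundling protein of dendritic cell processes, which is induced as the cells mature. It lies on chromosome 5 (mm10 chr5:142960343-142973185, plus strand). It had 151 and 223 CPM in ITD libraries and 57.9 and 65.9 CPM in WT libraries. Both ITD libraries were above both WT libraries, with a log2 fold change of 1.60 ± 0.13 (edgeR adjusted p = 0.000595). The effect also passed in each of the other 4 subsets, at 1.17 ± 0.12 in Esam-hi (edgeR adjusted p = 0.00672), 1.14 ± 0.10 in canonical CD8+ (0.000286), 0.98 ± 0.10 in non-canonical CD8+ (0.000581) and 1.66 ± 0.15 in PDC (0.000625). Fscn1 was higher in the ITD library in 12 of 12 pairs. The 250 bases upstream of the RefSeq start of Fscn1 (GRCm38.p6, chr5:142960105-142960354, plus strand) are shown because Fscn1 had the smallest p of all genes; they hold no match on either strand to TTCNNNGAA, the palindrome bound by STAT factors, which 7.02% of 32851 such windows hold.
Fscn1: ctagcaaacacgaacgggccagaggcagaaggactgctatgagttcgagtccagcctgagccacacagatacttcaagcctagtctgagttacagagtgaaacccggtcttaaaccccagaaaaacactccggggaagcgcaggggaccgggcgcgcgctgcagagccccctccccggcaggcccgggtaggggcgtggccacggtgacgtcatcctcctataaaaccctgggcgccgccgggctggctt

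Plxdc2, a transmembrane protein with a plexin-like extracellular domain, had the largest fold change of the 9 (chr2:16356304-16755839, plus strand). It had 29.0 and 29.7 CPM in ITD libraries and 6.23 and 2.84 CPM in WT libraries. The ITD libraries were nearly equal and well above both WT libraries, with a log2 fold change of 2.79 ± 0.32 (edgeR adjusted p = 0.00951). Its effect was 3.46 ± 0.57 in canonical CD8+ cells, where it also passed (edgeR adjusted p = 0.0114), 1.62 ± 0.40 in Esam-hi cells, 0.59 ± 0.24 in non-canonical CD8+ cells and -0.01 ± 0.27 in PDC. In Esam-lo cells without pair D the log2 fold change of Plxdc2 was 2.28 and did not pass (edgeR adjusted p = 0.174).

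Socs2, a feedback inhibitor of cytokine receptor signalling that is induced by STAT5, lies on chromosome 10 (chr10:95385362-95417180, minus strand). It had 13.7 and 24.8 CPM in ITD libraries and 3.72 and 6.50 CPM in WT libraries. The pairs gave log2 differences of 1.91 in batch C and 1.90 in batch D, and the fitted change was 1.93 ± 0.28 (edgeR adjusted p = 0.0453). Socs2 was higher in the ITD library in 12 of 12 pairs of the study. Its effect was 5.45 ± 0.33 in PDC and 2.98 ± 0.24 in non-canonical CD8+ cells, where it passed (edgeR adjusted p = 2.06e-05 and 0.000102), and 0.82 ± 0.24 in Esam-hi and 0.77 ± 0.20 in canonical CD8+ cells, where it did not.

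Slc4a8, a sodium-driven chloride and bicarbonate exchanger, lies at chr15:100761747-100823968 (plus strand). Its levels were 23.8 and 33.6 CPM in ITD libraries and 6.90 and 16.5 CPM in WT libraries. The groups did not overlap and the log2 fold change was 1.39 ± 0.21 (edgeR adjusted p = 0.0475). Dapk1, a calmodulin-regulated serine/threonine kinase linked to cell death, lies at chr13:60601947-60763191 (plus strand). It had 88.2 and 94.6 CPM in ITD libraries and 48.2 and 37.5 CPM in WT libraries. The groups were again separate, with a log2 fold change of 1.13 ± 0.16 (edgeR adjusted p = 0.0453). Its effect in Esam-hi cells was 1.12 ± 0.17 (edgeR adjusted p = 0.059), close to that in Esam-lo cells.

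Spib, an Ets-family transcription factor of plasmacytoid dendritic cells and B cells, lies at chr7:44525993-44532071 (minus strand). It had 59.8 and 53.6 CPM in ITD libraries and 38.5 and 34.1 CPM in WT libraries, with no overlap and a log2 fold change of 0.67 ± 0.10 (edgeR adjusted p = 0.0453). Its effect in canonical CD8+ cells was 1.73 ± 0.09 (edgeR adjusted p = 5.62e-06). Tmem123, a mucin-like transmembrane protein, lies at chr9:7764041-7794333 (plus strand). Its levels were 758 and 976 CPM in ITD libraries and 550 and 639 CPM in WT libraries. The log2 fold change of 0.56 ± 0.08 was the smallest of the 9 (edgeR adjusted p = 0.0453), and both pairs gave close values, 0.53 and 0.60. Tmem123 also rose in Esam-hi cells, by 0.85 ± 0.08 (edgeR adjusted p = 0.00548).

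Apoe encodes a lipid-carrying apolipoprotein that macrophages make in quantity and lies at chr7:19696109-19699188 (minus strand). It fell to 94.0 and 98.8 CPM in ITD libraries, against 220 and 255 CPM in WT libraries. The groups were far apart relative to the spread within each, and the log2 fold change was -1.27 ± 0.13 (edgeR adjusted p = 0.00286). Apoe was lower in the ITD library in 12 of 12 pairs, with effects of -1.55 ± 0.10 in non-canonical CD8+ cells (edgeR adjusted p = 3.73e-05), -0.86 ± 0.13 in PDC (0.021), -0.52 ± 0.12 in Esam-hi cells (0.299) and -0.44 ± 0.10 in canonical CD8+ cells (0.0755). Red pulp macrophage markers were present in the sorted cells and were higher in batch C than in batch D in both genotypes. Summed over 14 markers they made 548 and 332 CPM in ITD libraries and 731 and 415 CPM in WT libraries. Of the 14, 3 were lower and 0 higher at an unadjusted p under 0.05 (5.97% and 7.11% of all genes), and none was at 0 in all 4 libraries. Vcam1, which red pulp macrophages express, had 48.4 and 12.2 CPM in ITD libraries and 108 and 27.3 CPM in WT libraries. Its range overlapped between genotypes because batch C was higher in both. Within pairs it was lower in the ITD library by log2 differences of -1.09 (batch C) and -1.17 (batch D), and Apoe by -1.16 and -1.38. The summed CPM of the red pulp macrophage list was lower in the ITD library in both batches. The list had a median log2 difference of -0.59 in batch C and 0.08 in batch D. Of its 14 markers, 4 were higher and 6 lower in both pairs (25.8% and 26.7% of all genes). The part of these cells in the Apoe value was not tested, and in bulk RNA fewer cells of a type and less RNA per cell cannot be told apart.

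Ikzf3 encodes Aiolos, an Ikaros-family factor of lymphocytes, and lies at chr11:98464902-98546031 (minus strand). It had 6.43 and 5.03 CPM in ITD libraries and 20.9 and 20.7 CPM in WT libraries. The WT libraries agreed closely and lay above both ITD libraries, with a log2 fold change of -1.85 ± 0.25 (edgeR adjusted p = 0.0394). Its effect was -1.21 ± 0.25 in Esam-hi cells, 0.51 ± 0.26 in canonical CD8+, -0.03 ± 0.19 in non-canonical CD8+ and 0.02 ± 0.22 in PDC. Natural killer (NK) cells express Ikzf3, and several of their transcripts were lower in ITD Esam-lo cells. Of 14 NK cell genes tested, 8 were lower and 0 higher at an unadjusted p under 0.05 (5.97% and 7.11% of all genes). None passed the adjusted test, and the median log2 fold change was -1.36 in Esam-lo and -1.97 in Esam-hi cells. Nkg7, a cytotoxic granule protein, had 2.32 and 2.18 CPM in ITD libraries and 8.36 and 8.18 CPM in WT libraries. Ncr1, the NK cell receptor NKp46, had 1.16 and 0.91 CPM in ITD libraries and 12.6 and 4.41 CPM in WT libraries. The NK list summed to 475 and 580 CPM in ITD libraries and 532 and 557 CPM in WT libraries, most of it from Klrk1, Klrd1, Ccl5 and Tbx21, whose levels overlapped between the genotypes. B cell markers had overlapping sums, 946 and 1011 CPM in ITD and 1574 and 878 CPM in WT libraries, and T cell markers made 53.4 to 54.6 CPM in ITD and 57.0 to 62.5 CPM in WT libraries. The part of other lymphocytes in the Ikzf3 value was not tested.

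The genes with the smallest p beyond the threshold are described next, and they did not pass. Relb, the NF-kappaB subunit tied to dendritic cell maturation, had 248 and 281 CPM in ITD libraries and 183 and 194 CPM in WT libraries. These did not overlap, with a log2 fold change of 0.51 ± 0.08 (edgeR adjusted p = 0.0533), and Relb was higher in the ITD library in 12 of 12 pairs. Ccl22, a chemokine that draws regulatory T cells, had 46.3 and 83.2 CPM in ITD libraries and 19.4 and 23.9 CPM in WT libraries (log2 fold change 1.56 ± 0.24, edgeR adjusted p = 0.0556). Cd209d, a DC-SIGN-related lectin, had 36.3 and 28.5 CPM in ITD libraries and 16.7 and 17.1 CPM in WT libraries (0.95 ± 0.15, edgeR adjusted p = 0.0613). Relb, Ccl22 and Cd209d filled the list of named higher genes to 10.

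On the lower side, 8 genes that did not pass filled the list. Fgd4, an exchange factor for Cdc42, had 8.48 and 10.6 CPM in ITD libraries and 24.2 and 24.5 CPM in WT libraries (log2 fold change -1.33 ± 0.22, edgeR adjusted p = 0.0613). Itgal, the CD11a chain of the integrin LFA-1, had 114 and 166 CPM in ITD libraries and 207 and 221 CPM in WT libraries (-0.61 ± 0.11, edgeR adjusted p = 0.0775). Cd38, an NAD-consuming ectoenzyme, had 13.2 and 8.73 CPM in ITD libraries and 23.7 and 13.5 CPM in WT libraries, close to touching (-0.71 ± 0.12, edgeR adjusted p = 0.077). Mmp9, the gelatinase of neutrophils and activated myeloid cells, had 4.64 and 6.01 CPM in ITD libraries and 23.0 and 42.0 CPM in WT libraries (-2.56 ± 0.45, edgeR adjusted p = 0.0775). Neutrophil markers summed, with Mmp9 among 14, to 50.1 and 35.8 CPM in ITD libraries and 96.6 and 103 CPM in WT libraries, and Ly6g was at 0.18 and 0 CPM in ITD and 0.061 and 0 CPM in WT libraries.

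Hes1, a Notch target, had 68.4 and 29.8 CPM in ITD libraries and 120 and 48.9 CPM in WT libraries, so the groups overlapped and the batches differed more than the genotypes (-0.74 ± 0.14, edgeR adjusted p = 0.082). Ryr3, a ryanodine receptor, also overlapped, at 1.61 and 5.58 CPM in ITD libraries and 4.82 and 35.5 CPM in WT libraries (edgeR adjusted p = 0.0775). Igkv1-88, an immunoglobulin kappa variable segment, rested on 1 library, with 3.04 and 0 CPM in ITD and 35.2 and 0.928 CPM in WT. Gm6169, a predicted gene, had 26.0 and 28.1 CPM in ITD libraries and 40.2 and 39.8 CPM in WT libraries (-0.54 ± 0.10, edgeR adjusted p = 0.082).

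**Figure D2:**
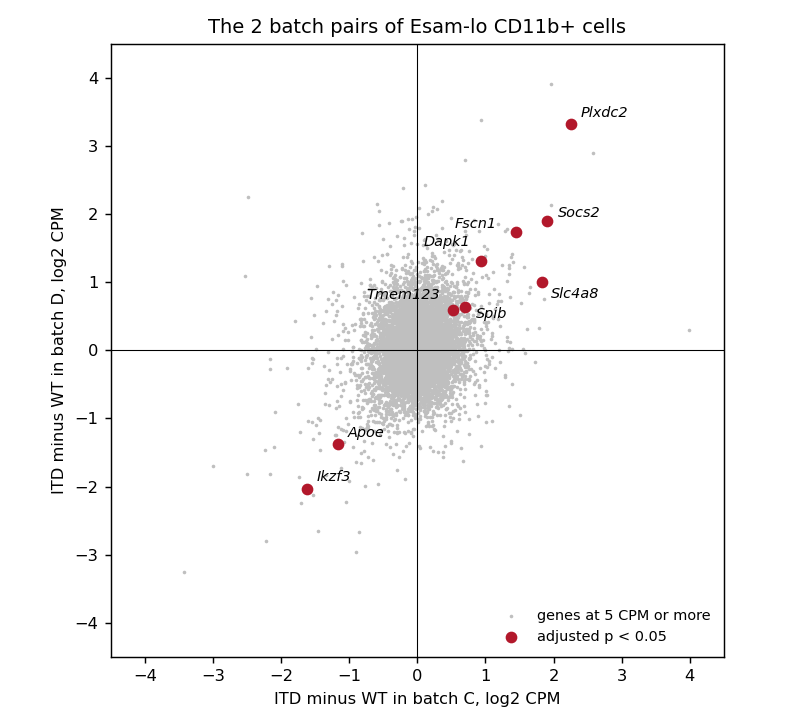
Log2 ITD-minus-WT difference in pair D (vertical) against pair C (horizontal) for 11098 genes with at least 5 CPM on average, with the 9 genes that passed named and coloured; 5 genes lie outside the axes of ±4.5. The cloud is only slightly tilted, with a Pearson correlation across genes of 0.23, and the named genes lie in the quadrants where both pairs share a sign.

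Genes of dendritic cell maturation, the programme by which the cells gain costimulatory molecules and move to T cell zones, were more often higher than lower. Of 24 tested, Fscn1, Socs2 and Tmem123 rose and none fell after adjustment. At an unadjusted p under 0.05, 11 were higher and 1 lower, against 7.11% and 5.97% of all genes. The median log2 fold change was 0.40, against 0 over all genes and 0.34 for the same 24 genes in Esam-hi cells. In 11 of the 24 both ITD libraries were above both WT libraries, which held for 16.3% of all genes. DESeq2 called 10 of the 24 higher (1.07% of all genes). The list was drawn up with results on these libraries known.

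Ccr7, the receptor that guides mature dendritic cells to T cell zones, had 645 and 1332 CPM in ITD libraries and 352 and 841 CPM in WT libraries. The groups overlapped because batch D was higher in both genotypes, while both pairs went the same way, by 0.94 in batch C and 0.65 in batch D. The log2 fold change of 0.79 ± 0.16 did not pass (edgeR adjusted p = 0.103), although Ccr7 was higher in the ITD library in 12 of 12 pairs. Il4i1, an amino acid oxidase of activated myeloid cells, had 162 and 209 CPM in ITD libraries and 114 and 74.4 CPM in WT libraries (1.02 ± 0.18, edgeR adjusted p = 0.0775). Cd40, the costimulatory receptor for CD40 ligand, had 100.5 and 113 CPM in ITD libraries and 76.1 and 62.4 CPM in WT libraries (0.65 ± 0.14, edgeR adjusted p = 0.118), with 12 of 12 pairs higher. The costimulatory genes Cd80 and Cd86 did not share this. Cd80 had 57.7 and 79.9 CPM in ITD libraries and 42.5 and 136 CPM in WT libraries. Cd86 had 252 and 324 CPM against 211 and 434 CPM, and Cd274 had 190 and 213 CPM against 150 and 322 CPM. Each of them was higher in the ITD library in batch C and lower in batch D. Pdcd1lg2, which encodes the inhibitory ligand PD-L2, was the 1 member lower at an unadjusted p under 0.05, at 14.7 and 10.7 CPM in ITD libraries and 17.6 and 24.6 CPM in WT libraries (-0.71 ± 0.25, edgeR adjusted p = 0.276).

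MHC class II genes, whose products present peptides to CD4+ T cells, were also more often higher than lower, by small amounts. None of 13 tested passed in edgeR, and 8 were higher and 0 lower at an unadjusted p under 0.05 (7.11% and 5.97% of all genes). In both pairs 11 were higher and 0 lower (25.8% and 26.7% of all genes), and DESeq2 called 6 higher (1.07% of all genes). The median log2 fold change was 0.24, against 0.08 for the same genes in Esam-hi cells. H2-Ab1, the beta chain of I-A, had 17728 and 15834 CPM in ITD libraries and 15344 and 12280 CPM in WT libraries. The ITD libraries were higher without overlap, with a log2 fold change of 0.31 ± 0.06 (edgeR adjusted p = 0.082).

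H2-DMb2, a chain of the peptide-loading molecule H2-M, had 1082 and 895 CPM in ITD libraries and 775 and 720 CPM in WT libraries (0.42 ± 0.08, edgeR adjusted p = 0.0831). H2-Oa and H2-Ob form H2-O, which restrains H2-M. H2-Oa had 491 and 418 CPM in ITD libraries and 345 and 343 CPM in WT libraries (0.42 ± 0.09, edgeR adjusted p = 0.125). H2-Ob had 673 and 660 CPM in ITD libraries and 527 and 531 CPM in WT libraries (0.36 ± 0.07, edgeR adjusted p = 0.109). Both members thus lay higher in both ITD libraries, without passing. H2-Eb1, the beta chain of I-E, had 5744 and 5189 CPM in ITD libraries and 4967 and 4429 CPM in WT libraries (0.24 ± 0.07, edgeR adjusted p = 0.193).

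Class II promoters are known to carry a conserved Y box bound by NF-Y close to the start. RefSeq windows of 250 upstream bases (GRCm38.p6) were at hand for 9 of the 13 genes, and the letters CTGATTGG, on either strand, were in 3 of the 9 (H2-Aa, H2-Eb1 and H2-Oa), against 3.83% of all 32851 windows. All 3 are shown, H2-Aa (chr17:34287824-34288073, minus strand), H2-Eb1 (chr17:34305617-34305866, plus strand) and H2-Oa (chr17:34092129-34092378, plus strand), with the letters in the same orientation 51, 62 and 46 bases before the start. The capitals mark the match, which describes the sequence and does not show binding in these cells.
H2-Aa: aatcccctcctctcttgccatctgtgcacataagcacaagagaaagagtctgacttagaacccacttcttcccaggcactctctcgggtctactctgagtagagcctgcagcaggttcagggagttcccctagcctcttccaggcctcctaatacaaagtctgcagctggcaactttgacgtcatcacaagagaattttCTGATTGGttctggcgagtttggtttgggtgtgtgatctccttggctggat
H2-Eb1: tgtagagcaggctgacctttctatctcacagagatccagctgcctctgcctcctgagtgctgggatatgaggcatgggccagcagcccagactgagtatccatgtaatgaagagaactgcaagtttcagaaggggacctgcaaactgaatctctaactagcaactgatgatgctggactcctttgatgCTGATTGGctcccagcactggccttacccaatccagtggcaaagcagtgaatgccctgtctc
H2-Oa: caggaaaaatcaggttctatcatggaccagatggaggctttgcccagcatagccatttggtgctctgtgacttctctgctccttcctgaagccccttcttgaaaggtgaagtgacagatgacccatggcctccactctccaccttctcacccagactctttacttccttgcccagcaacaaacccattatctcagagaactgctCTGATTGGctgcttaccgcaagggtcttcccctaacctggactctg

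**Figure D3:**
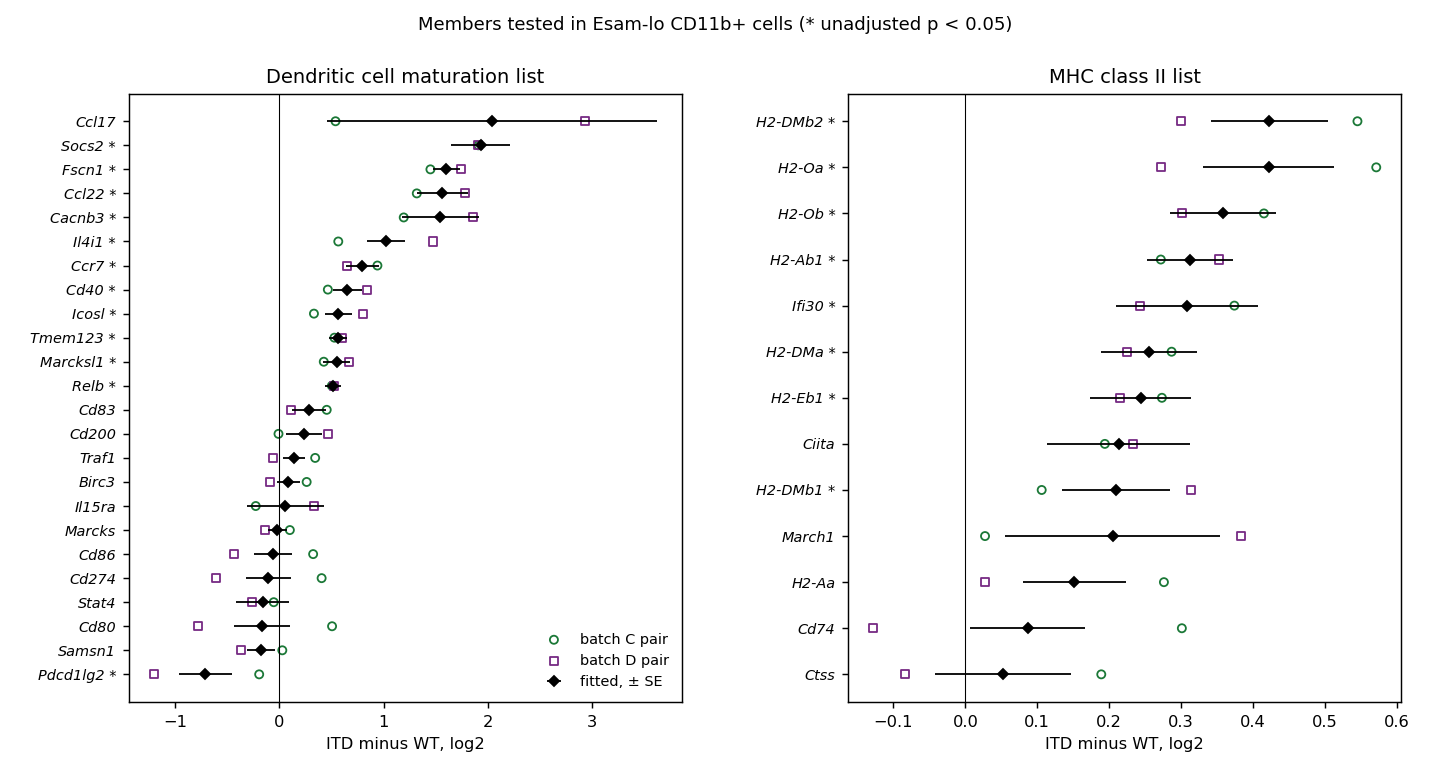
Log2 ITD-minus-WT difference in pair C (circles) and pair D (squares) and fitted log2 fold change with SE (diamonds) for the tested members of the dendritic cell maturation list and of the MHC class II list in Esam-lo cells, with a line at 0. Of the 24 maturation genes 13 were higher in both pairs and 2 lower in both, and of the 13 class II genes 11 were higher in both and 0 lower in both.

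MHC class I and interferon-stimulated genes, which are both induced by interferon, were more often higher than lower. No class I gene of 17 passed, and 7 were higher and 0 lower at an unadjusted p under 0.05 (7.11% and 5.97% of all genes). DESeq2 called 5 higher (1.07% of all genes). The median log2 fold change of the class I genes was 0.20, against 0.15 in Esam-hi cells. It lay mostly in batch D, with a median difference of 0.08 in pair C and 0.38 in pair D. H2-D1, a classical class I heavy chain, had 4759 and 5261 CPM in ITD libraries and 4379 and 3337 CPM in WT libraries (0.41 ± 0.09, edgeR adjusted p = 0.14). Nlrc5, the class I transactivator, had 73.4 and 87.3 CPM in ITD libraries and 58.5 and 59.4 CPM in WT libraries (0.47 ± 0.12, edgeR adjusted p = 0.164). Tap1, a subunit of the peptide transporter, had 299 and 343 CPM in ITD libraries and 267 and 184 CPM in WT libraries (0.55 ± 0.17, edgeR adjusted p = 0.218). In these 3 genes both ITD libraries were above both WT libraries.

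Of 29 interferon-stimulated genes tested none passed, and 10 were higher and 0 lower at an unadjusted p under 0.05 (7.11% and 5.97% of all genes). In both pairs 23 were higher and 2 lower (25.8% and 26.7% of all genes). The median log2 fold change was 0.56, against 0.35 for the same genes in Esam-hi cells. DESeq2 called 2 of the 29 higher (1.07% of all genes). Ifi203, an interferon-induced nuclear protein, had 84.1 and 79.3 CPM in ITD libraries and 55.5 and 53.0 CPM in WT libraries (0.62 ± 0.17, edgeR adjusted p = 0.18). The antiviral genes Ifit1 and Ifit3 were expressed at low levels. Ifit1 had 8.57 and 9.28 CPM in ITD libraries and 2.81 and 5.10 CPM in WT libraries (1.24 ± 0.51, edgeR adjusted p = 0.335). Ifit3 had 8.48 and 16.1 CPM in ITD libraries and 6.29 and 4.06 CPM in WT libraries (1.24 ± 0.45, edgeR adjusted p = 0.281). Both had ITD libraries above the WT libraries, with wide errors.

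The interferon-stimulated response element, searched as 2 copies of GAAA with any 2 bases between them, on either strand, was in 9 of the 20 interferon-stimulated genes with a RefSeq window and in 2.98% of all windows. Ifit1 (chr19:34640639-34640888, plus strand) and Ifit3 (chr19:34583279-34583528, plus strand) are shown as promoters with 2 matches each, in capitals, here on the opposite strand and so read as 2 copies of TTTC. These genes were chosen as interferon targets, so the share describes the list and not the effect of the ITD.
Ifit1: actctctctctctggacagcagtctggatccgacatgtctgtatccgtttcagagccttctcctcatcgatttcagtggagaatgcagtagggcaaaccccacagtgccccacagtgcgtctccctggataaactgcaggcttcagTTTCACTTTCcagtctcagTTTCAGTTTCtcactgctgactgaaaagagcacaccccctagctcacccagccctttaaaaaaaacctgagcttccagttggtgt
Ifit3: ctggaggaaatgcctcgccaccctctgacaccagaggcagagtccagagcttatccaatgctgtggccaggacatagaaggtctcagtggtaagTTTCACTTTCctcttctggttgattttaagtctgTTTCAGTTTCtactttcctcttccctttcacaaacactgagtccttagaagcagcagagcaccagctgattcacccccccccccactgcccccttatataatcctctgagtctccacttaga

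The pathways downstream of Flt3 gave a mixed picture. Of 20 STAT5-responsive genes, Socs2 rose, and 5 were higher and 2 lower at an unadjusted p under 0.05 (7.11% and 5.97% of all genes). The median log2 fold change of these 20 was 0.15. Pim3, a serine/threonine kinase, had 128 and 156 CPM in ITD libraries and 102 and 91.7 CPM in WT libraries (0.57 ± 0.12, edgeR adjusted p = 0.109). Bcl2, the survival factor, lay the other way, at 38.8 and 36.0 CPM in ITD libraries and 58.4 and 56.1 CPM in WT libraries (-0.59 ± 0.18, edgeR adjusted p = 0.223). Myc, a growth regulator, had 56.8 and 50.8 CPM in ITD libraries and 101 and 65.8 CPM in WT libraries (-0.58 ± 0.21, edgeR adjusted p = 0.295). Among 19 genes of MAPK feedback 2 were higher and 2 lower at an unadjusted p under 0.05, and among 15 FOXO-regulated genes, which PI3K signalling represses, 1 was higher and 0 lower. Of 24 cytokine receptor genes 0 were higher and 1, Flt3, lower.

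Transcription factors of dendritic cells included 1 that rose, Spib, and 1 that fell, Ikzf3, among 36 tested. At an unadjusted p under 0.05, 7 were higher and 4 lower (7.11% and 5.97% of all genes). Zbtb46, which marks conventional dendritic cells, had 278 and 268 CPM in ITD libraries and 213 and 199.6 CPM in WT libraries (0.43 ± 0.13, edgeR adjusted p = 0.203). Etv6, an Ets-family repressor, had 342 and 354 CPM in ITD libraries and 279 CPM in both WT libraries (0.34 ± 0.09, edgeR adjusted p = 0.168). Cebpb, a factor of monocytes and macrophages, had 64.0 and 93.6 CPM in ITD libraries and 188 and 199 CPM in WT libraries (-1.29 ± 0.30, edgeR adjusted p = 0.143). All 3 genes had groups that did not overlap.

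Genes that tell dendritic cell subsets apart showed no common direction. At an unadjusted p under 0.05, 3 were higher and 2 lower of 20 genes of CD11b+ dendritic cells, 1 and 1 of 19 of CD8+ dendritic cells, 2 and 1 of 20 of PDC, and 1 and 2 of 14 of the Notch-dependent Esam-hi fraction. Over all genes the shares were 7.11% higher and 5.97% lower. Itgae, which encodes CD103 and is typical of CD8+ dendritic cells, had 17.3 and 18.9 CPM in ITD libraries and 4.58 and 4.18 CPM in WT libraries. The groups were far apart, but the log2 fold change of 2.08 ± 0.40 did not pass (edgeR adjusted p = 0.082), and in non-canonical CD8+ cells Itgae fell by 2.15 ± 0.37 on the log2 scale (edgeR adjusted p = 0.00628). Mgl2, a lectin close to Clec10a, had 71.9 and 46.8 CPM in ITD libraries and 50.7 and 24.2 CPM in WT libraries, with overlap (0.75 ± 0.21, edgeR adjusted p = 0.182).

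Monocyte-related genes, which distinguish Esam-lo from Esam-hi cells, were more often lower than higher. None of 20 passed in edgeR, and DESeq2 called 1 lower (0.232% of all genes). The median log2 fold change was -0.34, against -0.15 for the same genes in Esam-hi cells. At an unadjusted p under 0.05, 0 were higher and 7 lower (7.11% and 5.97% of all genes). Both ITD libraries were below both WT libraries in 10 of the 20, against 17.3% of all genes, and the list summed to 5044 and 4349 CPM in ITD libraries and 7016 and 5468 CPM in WT libraries. Fcgr3, an activating Fc receptor, had 37.9 and 23.2 CPM in ITD libraries and 76.7 and 61.8 CPM in WT libraries (-1.19 ± 0.26, edgeR adjusted p = 0.126). Treml4, a receptor of non-classical monocytes and some splenic dendritic cells, had 68.4 and 59.8 CPM in ITD libraries and 128 and 117 CPM in WT libraries (-0.91 ± 0.26, edgeR adjusted p = 0.193). Lyz2, lysozyme, had 1609 and 1154 CPM in ITD libraries and 2953 and 2030 CPM in WT libraries (-0.82 ± 0.33, edgeR adjusted p = 0.324). Lyz2 made the largest part of the summed list in each library. Its log2 differences in batches C and D were -0.81 and -0.83 in Esam-lo cells and -0.83 and -0.69 in Esam-hi cells. The 4 markers of the subset, of which Ccr2, Clec12a and Itgam are also on this list, had no common direction. Clec10a and Ccr2 had fold changes above 0. Itgam was lower in both pairs, by -0.04 in batch C and -0.20 in batch D. Clec12a differed by -0.22 in batch C and 0.26 in batch D.

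**Figure D4:**
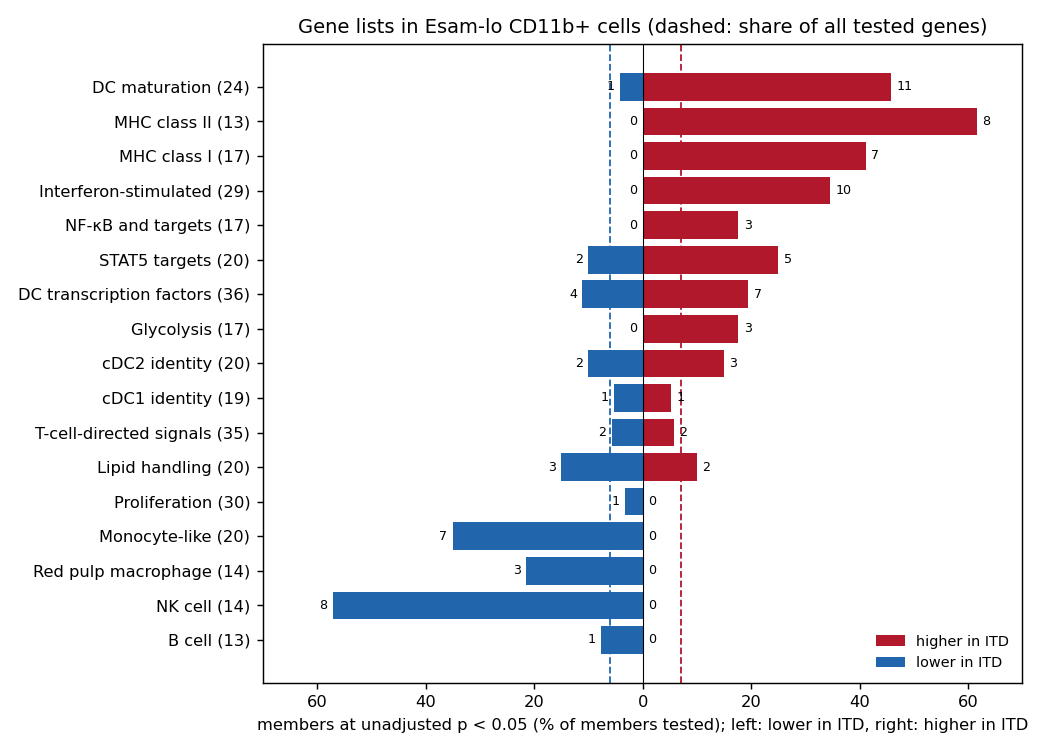
Share of the tested members of 17 gene lists, in percent, that were higher (right, red) or lower (left, blue) in ITD Esam-lo cells at an unadjusted p under 0.05; figures beside the bars are counts, those in brackets are members tested, and dashed lines mark the 7.11% and 5.97% of all genes. The maturation, MHC and interferon-stimulated lists have bars of 7 to 11 members on the right and 0 or 1 on the left, and the monocyte-related and NK cell lists have 7 and 8 on the left and 0 on the right.

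Other functions of the cells were described by lists in the same way, with counts at an unadjusted p under 0.05. Of all genes 7.11% were higher and 5.97% lower at that threshold. Of 17 NF-kappaB genes 3 were higher and 0 lower, of which Relb is given above. Chemokine genes were 3 higher and 3 lower of 19. Ccl22 was on the higher side and Cxcl2, a neutrophil attractant, on the lower, at 12.8 and 15.1 CPM in ITD libraries and 19.7 and 31.1 CPM in WT libraries (-0.82 ± 0.29, edgeR adjusted p = 0.281). Chemokine receptors were 2 higher and 2 lower of 19. Cxcr4, the receptor for Cxcl12, had 87.0 and 85.0 CPM in ITD libraries and 129 and 119 CPM in WT libraries (-0.50 ± 0.16, edgeR adjusted p = 0.223). Its groups were separate, but it did not pass.

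Ligands and cytokines directed at T cells were 2 higher and 2 lower of 35, and Toll-like receptor genes 2 and 2 of 18. Lectin receptors were 3 higher and 2 lower of 25. Clec4e, the receptor Mincle, had 3.75 and 5.52 CPM in ITD libraries and 13.1 and 26.2 CPM in WT libraries (-2.01 ± 0.53, edgeR adjusted p = 0.164). Lipid-handling genes, of which Apoe fell, were 2 higher and 3 lower of 20. Pltp, the phospholipid transfer protein, had 50.6 and 45.3 CPM in ITD libraries and 86.9 and 74.9 CPM in WT libraries (-0.73 ± 0.25, edgeR adjusted p = 0.264). Abcg1, a cholesterol exporter, was on the opposite side, at 137 and 97.7 CPM in ITD libraries and 91.9 and 85.8 CPM in WT libraries (0.41 ± 0.15, edgeR adjusted p = 0.286).

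Adhesion genes were 4 higher and 3 lower of 22. Among them Cdh2, N-cadherin, was counted in both ITD libraries, at 1.07 and 5.82 CPM, and in WT libraries at 0.061 CPM, a single read, and 0. Its level was low throughout and it did not pass (edgeR adjusted p = 0.0775). Glycolysis genes were 3 higher and 0 lower of 17. Pfkfb3, which makes the activator of phosphofructokinase, had 183 and 202 CPM in ITD libraries and 116 and 128 CPM in WT libraries (0.68 ± 0.13, edgeR adjusted p = 0.0775). Proliferation genes had 0 higher and 1 lower of 30, with 17 in which both ITD libraries were below both WT libraries (17.3% of all genes), and summed to 833 and 903 CPM in ITD libraries and 1119 and 1015 CPM in WT libraries. BCL2-family genes were 1 higher and 1 lower of 13, and genes of the unfolded protein response 1 and 2 of 15. Genes that respond to cell handling, such as Junb and Fos, were 3 higher and 1 lower of 17, and their part in the other lists was not tested.

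The effect in Esam-lo cells was then set against that in Esam-hi cells, the other CD11b+ fraction, which came from batches C and D as well. In the test of the difference between both effects, edgeR called 0 of 18093 genes in either direction and so did DESeq2, with 485 higher (2.68%) and 445 lower (2.46%) at an unadjusted p under 0.05 in edgeR. The smallest edgeR adjusted p was 0.928. Of the 9 genes that passed in Esam-lo cells, the difference of effects was largest relative to its error for Apoe, at -0.75 ± 0.18 (edgeR adjusted p = 0.928), with fold changes of -1.27 in Esam-lo and -0.52 in Esam-hi cells. For Socs2 the difference was 1.10 ± 0.37, for Fscn1 0.43 ± 0.18 and for Plxdc2 1.17 ± 0.53, each with an edgeR adjusted p of 0.928. The differences of effects of 2 class II genes were 0.27 ± 0.08 for H2-Ab1 and 0.38 ± 0.12 for H2-DMb2 (edgeR adjusted p = 0.928 each). Thus no effect was shown to differ between the fractions.

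Genes with the smallest p for that difference had opposite signs in the fractions. Heg1, a transmembrane protein of endothelial junctions, had 25.8 and 37.9 CPM in ITD libraries and 44.4 and 54.3 CPM in WT libraries of Esam-lo cells. Its log2 fold change was -0.62 ± 0.16 there and 0.54 in Esam-hi cells, a difference of -1.16 ± 0.23 (edgeR adjusted p = 0.928). Nupr1, a stress-induced nuclear protein, had 8.93 and 10.8 CPM in ITD libraries and 25.4 and 29.7 CPM in WT libraries of Esam-lo cells. Its fold changes were -1.46 ± 0.29 and 0.63, a difference of -2.09 ± 0.43 (edgeR adjusted p = 0.928). Both were picked for the small p of this difference and did not pass.

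**Figure D5:**
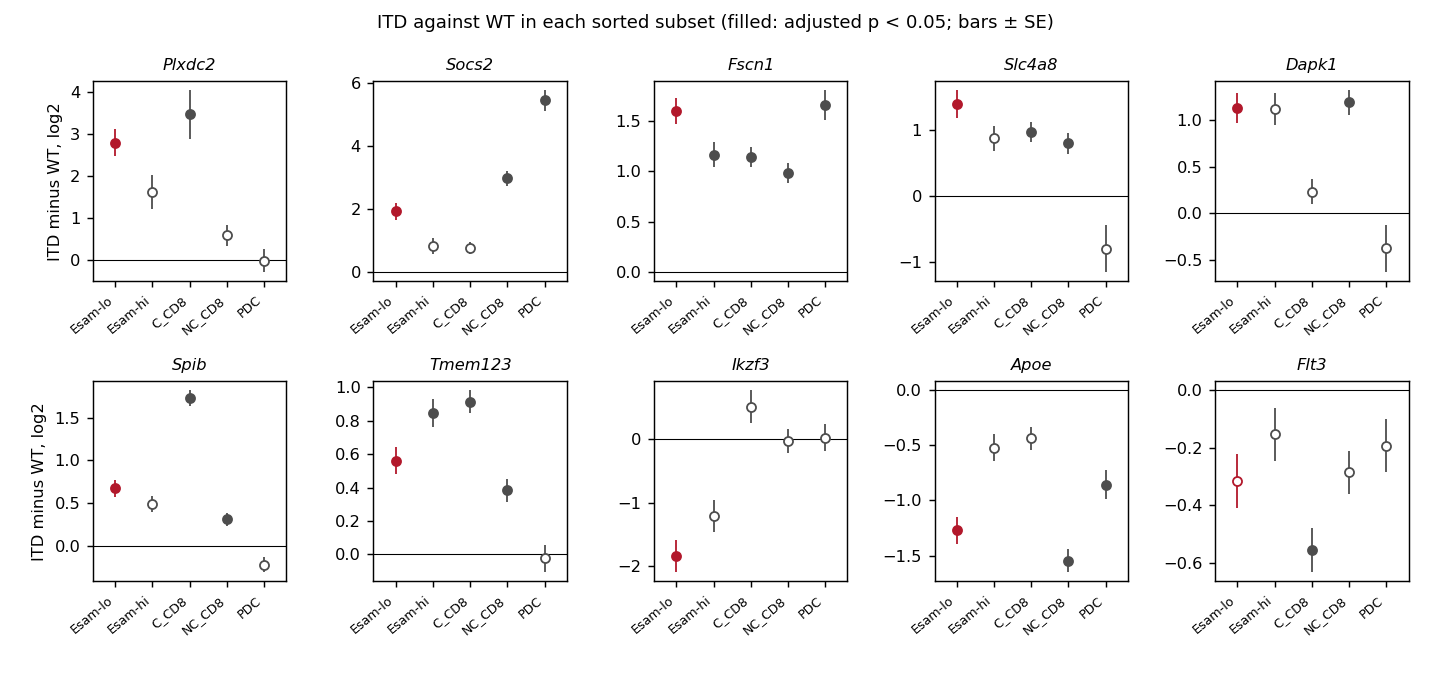
Log2 fold change (ITD over WT) with SE from the paired edgeR fit in each of the 5 subsets for the 9 genes that passed in Esam-lo cells and for Flt3 (Esam-lo in red; filled where the edgeR adjusted p was under 0.05; vertical scales differ). Fscn1 lies above 0 and Apoe below 0 in all 5 subsets, whereas Ikzf3 lies below 0 by more than its SE in the 2 CD11b+ fractions.

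Against the mean effect of the other 4 subsets, edgeR again called 0 genes in either direction, with 737 higher (4.07%) and 678 lower (3.75%) at an unadjusted p under 0.05, whereas DESeq2 called 18 higher (0.0995%) and 3 lower (0.0166%). Without pair C, edgeR called 7 higher and 2 lower. The smallest edgeR adjusted p was 0.139, for Apol7e, an apolipoprotein L family member with 3.39 and 2.24 CPM in ITD libraries and 1.04 and 0.348 CPM in WT libraries. Its effect exceeded the mean of the others by 2.88 ± 0.39 on the log2 scale. Ikzf3 followed, at -1.67 ± 0.27 relative to the mean of the others (edgeR adjusted p = 0.327).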

How the data were processed

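RNA of sorted splenic dendritic cells was measured in 24 libraries, 4 of them Esam-lo CD11b+. Sorting was by flow cytometry, with RNA isolation on PicoPure columns (after Trizol for some samples) and SMART-seq v4 cDNA, per the labels' protocols; such whole-transcript amplification can add noise at low input. The authors deposited raw counts per Ensembl gene, which were analysed here. They listed bcl2fastq 1.8.4, Bowtie2, DESeq2 1.8.2 and the mm10 build, per the submitters' processing notes. How reads were assigned to genes, and whether by strand, is not given in the sources used here, so reads of overlapping or near-identical genes, such as MHC and interferon-induced families, may have been split between them. A deposited normalized table was not used.

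Symbols and positions came from GENCODE annotation of the same build, which named 37607 of 39017 genes; genes without a symbol held 0.598% of the counts. After filterByExpr with a minimum count of 10, 18093 genes were tested, with TMM scaling. The main model was an edgeR (4.0.16, R 4.3.3) quasi-likelihood fit of all 24 libraries with 12 pair terms and 1 ITD effect for each subset, with Benjamini-Hochberg adjustment over all genes tested; DESeq2 1.42.0 was the second tool. An SE is the log2 fold change over the root of its F statistic. Single-library log2 CPM used TMM scaling and a prior count of 2, and served for pair differences and for list counts of separated libraries. Overlap of a single gene was judged on the CPM printed, without TMM scaling. Libraries were paired by the batch letter of their labels, and per the series design text replicates came from independent experiments; deviations of same-batch libraries from their group means correlated at 0.134 in Esam-lo and at 0.134 to 0.646 over the 12 pairs. The labels do not say how many mice a library holds, and p-values measure the spread between these libraries. The procedure was tested on simulated data.

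The comparison, the gene lists and the choice of tests were made with earlier results of these data known. Genes were drawn from a rule: those that passed with at least 5 CPM on average and the same sign in both pairs, filled to 10 in each direction by smallest p; Flt3 and the 4 markers; the 6 smallest p of each list; and the 10 smallest p of each difference of effects. From the list members and differences that the rule gave, the text names a part, chosen after their values were seen. A few further list members, such as Esam, Ncr1 and Ly6g, were given as cell type checks. Cd80, Cd86 and Cd274 were given as maturation genes whose direction differed between the pairs. Promoter windows came from RefSeq (GRCm38.p6), and figures were drawn with matplotlib 3.10.9. Alternatives were other size factors, DESeq2, no filter or a stricter one, no pairing, fewer subsets in the fit and each pair or library left out.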

Additional observations from a re-analysis of the deposited data

How the results depend on the processing

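Calls depended strongly on how the spread was estimated. The count of genes that rose and fell in ITD Esam-lo cells, 7 and 2, became 1 and 0 with no replicate block, that is with the batch pairing ignored. It became 12 and 2 with DESeq2 size factors, 194 and 42 with the DESeq2 test, 60 and 30 without a filter on low counts (27542 genes), 6 and 9 with CD11b+ libraries only (4 of the 9 genes among them) and 12 and 16 with Esam-lo libraries only (5 of the 9). In these last fits Slc4a8, Dapk1, Spib and Tmem123 did not pass, with edgeR adjusted p of 0.0618 to 0.356 over both, nor did Ikzf3 with CD11b+ libraries only (0.0728). Leaving out a pair or a library gave 0 to 94 genes higher and 0 to 33 lower; single libraries were left out of the unpaired fit, and the lone library or pair was assumed to vary like the other groups. The difference from Esam-hi cells stayed at 0 calls in every alternative, including those without Esam-hi replicate 1 or 2, which were added after seeing the data. Against the mean of the other 4 subsets DESeq2 called 18 and 3, and leaving out a pair or a library gave 0 to 7 higher and 0 to 2 lower. The 9 genes kept their sign in every alternative. Among 14 settings the median log2 fold change of the maturation list ran from 0.13 to 0.54, of the class II list from 0.15 to 0.32, of the interferon-stimulated list from 0.29 to 0.77 and of the monocyte-related list from -0.61 to -0.29. Some small values changed sign. Clec12a was -0.020 with no replicate block and ran from -0.32 (without WT replicate 2) to 0.26 (without replicate 1), with -0.22 without replicate 2 and -0.13 without ITD replicate 1. Without WT replicate 2, Ccr2 was -0.049 and Itgam 0.013; without WT replicate 1, Igkv1-88 was 0.60, Vcam1 0.12 and the Slc4a8 difference from Esam-hi -0.072. The Dapk1 difference from Esam-hi ran from -0.18 (without replicate 2) to 0.21 (without replicate 1), with -0.052 without ITD replicate 2 and -0.12 without WT replicate 2. The causes of these changes were not tested. At these depths genes under about 5 CPM, such as Cdh2, rest on few reads.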
